A study of Oryza sativa with 6 samples.

Results

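Transcript levels in leaves were compared between antisense-OsPDCD5 rice and nontransgenic rice that had both spent 3 h in NaCl. The comparison holds 2 of the 6 arrays of the study, chosen by their labels as the transgenic and the nontransgenic array of that stage, and it was followed over the rice probe sets of the array. Both groups were 2-week-old seedlings of the cultivar Zhonghua 11, grown on half-strength Murashige and Skoog medium and moved to dishes of that medium with 200 mM NaCl. The transgenic seedlings carried an OsPDCD5 antisense transgene, whose target takes its name from programmed cell death, and the nontransgenic seedlings did not. Each group was 1 Affymetrix rice array made from leaves of 10 plants, and the other 4 arrays held the same genotypes before NaCl and at 20 min. The labels name neither the promoter of the construct nor the number of transgenic lines. No probe set was tied to OsPDCD5, so the targeted gene could not be used to check the labels.

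Rice leaves answer fungi, bacteria and several abiotic stresses with diterpenoid phytoalexins, antimicrobial compounds built in the plastid from the general diterpene precursor. Copalyl diphosphate synthases (CPS) and kaurene synthase-like enzymes (KSL) fold the carbon skeleton, and cytochromes P450 of the CYP76M, CYP71Z, CYP99A and CYP701A families oxidise it to phytocassanes, oryzalexins and momilactones. Pathogenesis-related proteins, chitinases and the phenylpropanoid pathway, which starts at phenylalanine ammonia-lyase (PAL) and leads to lignin and wall-bound phenolics, belong to the same defence repertoire. Salt and drought raise another set, the dehydrins of the RAB16 family, which are known as abscisic acid responsive proteins of drying tissue.

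The value for each probe set was the difference of log2(signal + 16), transgenic minus nontransgenic, where the signal is the deposited MAS5 signal on the linear scale. With 1 array a side no test of the 3 h difference itself can be made, and at least 2-fold was used as a fixed rule of size. A genotype difference is confounded with every other lasting difference between the plants or the arrays of the 2 genotypes, and these cannot be told apart. A separate test was made on the other stages alone, a limma fit to the 4 arrays from before NaCl and 20 min, which do not include the 3 h arrays. It leaves 1 residual degree of freedom, to which limma adds the spread shared over all probe sets. Its p-values say whether a difference repeated at those stages and measure no spread between replicate plants. In leaves a lower signal can come from fewer cells of a type or from less RNA per cell, and these arrays cannot separate them.

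The leaf marker RBCS, the small subunit of Rubisco, had a signal of 34858 in nontransgenic and 26071 in transgenic leaves at 3 h by its brightest probe set. Its 2 other probe sets past the filter went the other way, at 2218 and 3385 and at 3150 and 12112, so RBCS gave no single direction. Of the root genes with a probe set, the silicon transporter Lsi2 was at 1.09 and 1.53, and the silicon channel Lsi1 at 537.4 and 944.9. The other root genes were lower in transgenic leaves. HKT1;5 was at 92.6 and 34.8, NRT2.2 at 51.6 and 20.2, and NRT2.3 at 22.7 and 2.25, so the root genes gave no single direction. Signals of the 3′ over the 5′ probe set of a gene mark RNA or cDNA integrity. For GAPDH the log2 ratio was 1.48 on the nontransgenic and 2.96 on the transgenic array, and the transgenic ratio was also higher at both other stages. The other ratios differed less at 3 h, transgenic minus nontransgenic, by 0.45 for actin, 0.08 for ubiquitin and -0.21 for cyclophilin. All 36 probe sets of the poly-A controls, transcripts added before labelling, were higher on the transgenic array at 3 h, with a median of 0.66 (log2), against 0.11 for 27 hybridisation controls. The part of these differences in the results was not tested, apart from a scaling to the added controls given below. That scaling used the mean log2 signal of the poly-A and hybridisation controls together. In mean log2 signal the poly-A controls were higher on the transgenic array by 0.78 at 3 h, and the hybridisation controls by 0.1. No scaling to the poly-A controls alone was made.

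At 3 h, 1688 of 28629 probe sets past the filter on mean signal were at least 2-fold higher in transgenic leaves (5.90%) and 2304 were at least 2-fold lower (8.05%). The median over all of them was -0.01. At least 4-fold differences were found for 346 higher and 648 lower probe sets. Counting 1 probe set per gene, 552 of 14884 genes were at least 2-fold higher (3.71%) and 1078 were lower (7.24%), with a median of -0.03. Higher probe sets made up 42.3% of those past 2-fold as deposited and 13.9% after scaling to the added controls, which moved the median of all probe sets to -0.47. The counts were then 775 higher and 4800 lower.

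Much of the difference at 3 h was also seen at the stages that the 3 h arrays did not enter. The fit on the 4 other arrays called 2958 probe sets higher (10.3%) and 3129 lower (10.9%) in transgenic leaves at a limma adjusted p under 0.05. Of the 1688 probe sets at least 2-fold higher at 3 h, 828 (49.1%) were among those called higher there and 7 among those called lower. Of the 2304 lower at 3 h, 1180 (51.2%) were called lower and 6 higher. At least 2-fold differences at all 3 stages in the same direction numbered 594 higher and 912 lower. By contrast, 212 of the higher and 346 of the lower probe sets had a mean difference of the opposite sign at the other stages. Across probe sets, which are not replicates, the 3 h difference correlated at 0.705 with that before NaCl and at 0.682 with that at 20 min, and the 2 other stages correlated at 0.758 with each other. A limma fit to all 6 arrays called 2845 probe sets higher (9.94%) and 3044 lower (10.6%).

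**Figure D1:**
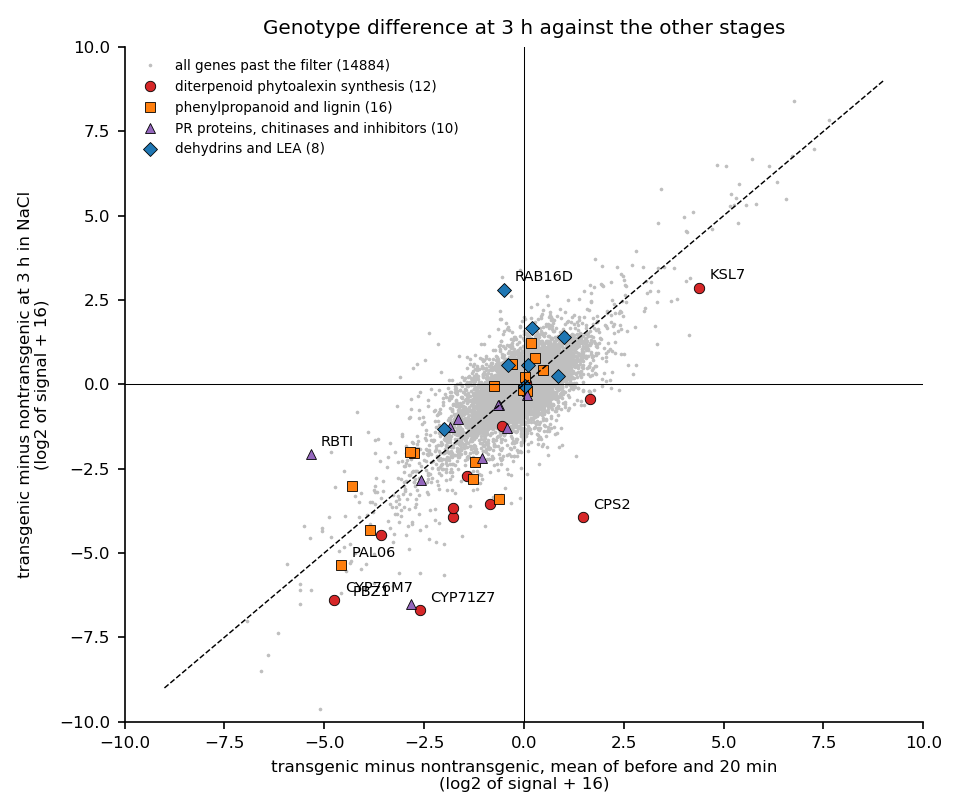
Genotype difference at 3 h in NaCl (vertical axis, log2 of signal + 16, transgenic minus nontransgenic) against the mean difference before NaCl and at 20 min (horizontal axis, same scale) for 14884 genes, with 4 gene lists in colour. The dashed line marks equal values. CPS2, CYP71Z7 and PBZ1 lie below it, at -5.42, -4.08 and -3.71 from it, and RAB16D and RBTI lie above it.

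Genes of diterpenoid phytoalexin synthesis had the lowest median of the lists described, at -3.60 over the 12 of 15 genes past the filter. Of these, 9 were at least 2-fold lower in transgenic leaves at 3 h and 1 was at least 2-fold higher. Over all genes the shares were 7.24% and 3.71%. The median of the list was -1.10 before NaCl and -0.66 at 20 min. In the fit on the other stages, 5 of the 12 were called lower and 2 higher, where 13.8% of all genes were called lower and 10.7% higher.

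The phytocassane gene CYP71Z7 (LOC4329726), a cytochrome P450, had a signal of 6534 in nontransgenic and 47.2 in transgenic leaves at 3 h. Before NaCl it was at 4768 and 615.7, and at 20 min at 699.6 and 128.9. Nontransgenic leaves were thus higher at every stage, with a log2 difference of -6.70 at 3 h against -2.92 and -2.30 earlier. The fit on the earlier stages gave -2.61 ± 0.19 (log2 difference ± SE, limma adjusted p = 0.000392).

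CYP76M7 (LOC4341447), of a P450 family that hydroxylates the cassadiene skeleton, was at 3084 and 20.99 at 3 h, at 3328 and 59.6 before NaCl, and at 1174 and 57.3 at 20 min, nontransgenic value first. It was therefore low in transgenic leaves throughout (-4.74 ± 0.33 at the earlier stages, limma adjusted p = 0.000347) and stood at -6.39 at 3 h. The reference table places the name CYP76M7 on a chromosome 6 gene, while an unnamed gene, LOC4329723, lies between CYP76M8 and KSL7 on chromosome 2. That gene had 2445 and 18 at 3 h, a difference of -6.18. Near-identical P450 genes may share hybridisation signal, so the 2 probe sets are not taken as separate evidence.

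Both copalyl diphosphate synthase genes on the list were lower at 3 h, with different histories. CPS4 (LOC4335090), of the momilactone route, was at 1662 in nontransgenic and 60.3 in transgenic leaves at 3 h, at 1572 and 41.0 before, and at 327.1 and 51.6 at 20 min. Its transgenic signal moved little between stages, and its difference at 3 h was -4.46, close to the -4.80 before NaCl. CPS2 (LOC9266189), of the phytocassane and oryzalexin route, was at 400.7 and 11.1 at 3 h, but at 454.9 and 460.1 before NaCl and at 5.17 and 145.5 at 20 min. The genotypes were equal within 0.02 before NaCl, transgenic leaves were higher by 2.93 at 20 min, and the difference was -3.94 at 3 h. Values of CPS2 below 16 make the size of these differences depend on the added constant.

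The momilactone genes next to CPS4 were low in the same way. CYP99A2 and CYP99A3, P450 genes of that route, had 3 h signals of 729.3 and 864.5 in nontransgenic and 32.9 and 53.5 in transgenic leaves, differences of -3.93 and -3.66. OsMAS, a momilactone A synthase gene, was at 260.9 and 25.7 (-2.73). KSL4, the cyclase of the group, did not pass the filter and had 97.1 and 1.80. In the order of RefSeq genes on chromosome 4 of assembly ASM3414082v1, CPS4, CYP99A3, OsMAS, KSL4 and CYP99A2 lie within 6 consecutive protein-coding genes. Of the 4 that passed the filter, all were at least 2-fold lower at 3 h, and CPS4, CYP99A2 and OsMAS were called lower at the earlier stages (limma adjusted p = 0.00512, 0.0442 and 0.0186), while CYP99A3 was not (0.0517).

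The chromosome 2 group was mixed. Among 10 consecutive protein-coding genes from CYP76M5 to CYP76M6, CYP76M8 stood at -1.24, CYP71Z7 at -6.70 and CPS2 at -3.94, but CYP71Z6 at -0.44, CYP76M6 at 0.03 and KSL7 at 2.86. KSL7 (LOC4329724), which encodes the cassadiene synthase between them, was at 232.4 in nontransgenic and 1793 in transgenic leaves at 3 h, at 170.7 and 1630 before NaCl, and at 18.2 and 1693 at 20 min. Transgenic leaves thus held KSL7 between 1630 and 1793 at every stage, above each nontransgenic value (4.39 ± 0.52 at the earlier stages, limma adjusted p = 0.00232). Its other probe set gave 2.15 at 3 h. CYP71Z6 was higher in transgenic leaves at the earlier stages (1.66 ± 0.25, limma adjusted p = 0.00569) and not at 3 h, where it was at 231.9 and 166.4. KSL10 (LOC4352248), a chromosome 12 cyclase of the oryzalexin route, was at 423.4 and 21.7 (-3.54) at 3 h. It was at 197.0 and 156.5 before NaCl and at 34.1 and 2.885 at 20 min (-1.41).

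**Figure D2:**
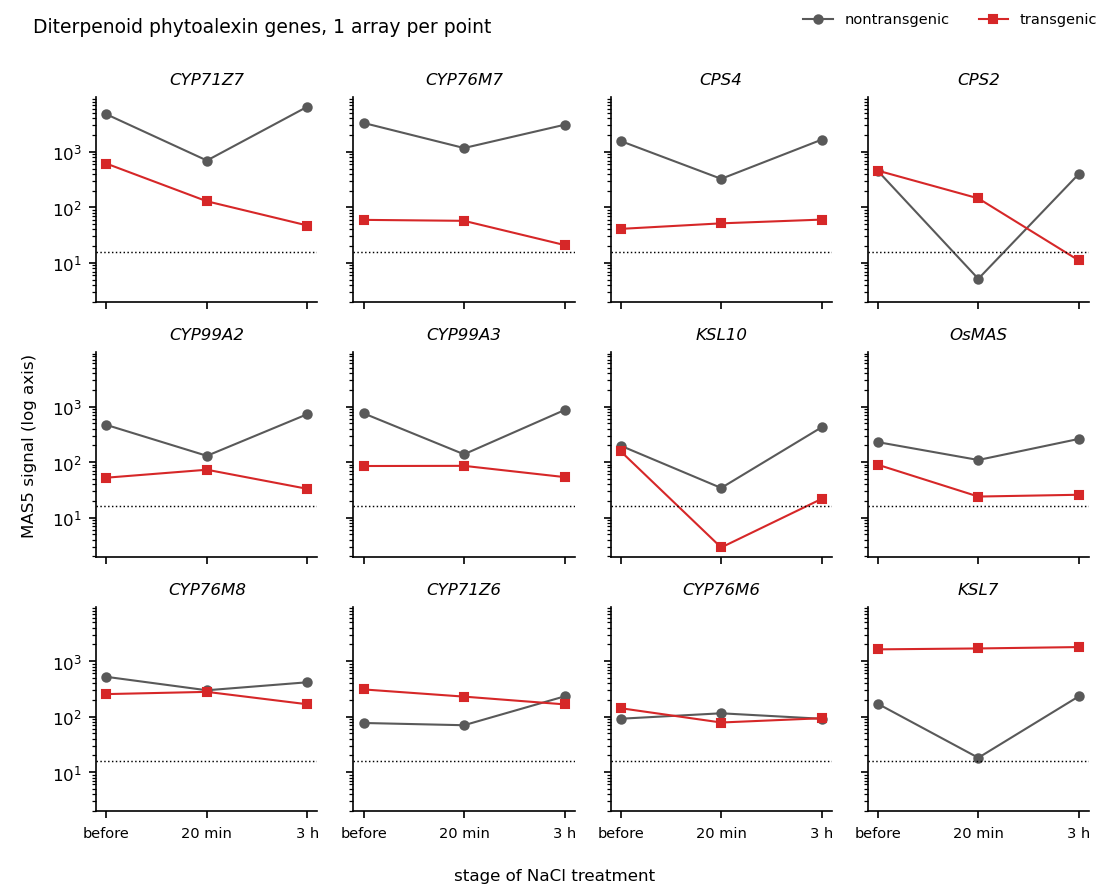
MAS5 signals on a log axis of the 12 diterpenoid phytoalexin genes past the filter before NaCl, at 20 min and at 3 h, with 1 array per point (grey circles, nontransgenic; red squares, transgenic). The dotted line marks the constant of 16 added before log2. At 3 h the transgenic point is below the nontransgenic one for 10 of the 12 genes, and KSL7 lies between 1630 and 1793 in the transgenic arrays.

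Genes that feed or extend the pathway were examined as lists added after the values had been seen. Of 7 genes of the plastid methylerythritol phosphate pathway, which supplies diterpene precursors, DXPS (LOC4342614), a deoxyxylulose phosphate synthase gene, was at 564.7 and 34.9 at 3 h (-3.51) and the other 6 lay between -0.15 and 0.41. DXPS had been at 376.6 and 205.5 before NaCl and at 153.5 and 178.9 at 20 min. The kaurene oxidase-like gene CYP701A8 was at 1152 and 97.8 at 3 h (-3.36), at 582.9 and 473.2 before NaCl, and at 167.0 and 179.9 at 20 min. For DXPS and CYP701A8 the differences at the earlier stages lay between -0.83 and 0.20, and the genotypes parted at 3 h. Of the 2 other CYP701A genes, CYP701A9 was at 253.6 and 21.6 (-2.84) and was already low earlier (-1.95 ± 0.43, limma adjusted p = 0.0211). CYP701A19 was at least 2-fold higher in transgenic leaves by its brightest probe set, at 262.1 and 543.2 (1.01), so 2 of the 3 were lower and 1 higher. Its other probe set past the filter was short of 2-fold, at 196.7 and 280.4 (0.48). Among all genes, 7.24% were at least 2-fold lower and 3.71% higher.

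Defence protein genes were also lower in transgenic leaves. Of 12 genes for pathogenesis-related proteins, chitinases and inhibitors, 10 passed the filter and all 10 were below 0 at 3 h. Of these, 7 were at least 2-fold lower, and the list median was -1.27. Cht7 and Cht9 did not pass, with 3 h signals of 1.44 and 8.94 and of 2.4 and 1.0, nontransgenic value first. Over all genes, 7.24% were at least 2-fold lower at 3 h. The fit on the earlier stages called 6 of the 10 lower and 0 higher, where 13.8% of all genes were called lower and 10.7% higher. PBZ1 (LOC4352491), a pathogenesis-related protein gene of the PR10 class, was at 30780 in nontransgenic and 318.8 in transgenic leaves at 3 h. It was at 25688 and 4494 before NaCl and at 20103 and 2297 at 20 min. Nontransgenic leaves thus kept a high signal at each stage, while the transgenic signal was lowest at 3 h, giving -6.52 after -2.51 and -3.12. Chitinase gene Cht11 was at 7783 and 1072 (-2.84) and differed about as much at the earlier stages (-2.58 ± 0.11, limma adjusted p = 7.16e-05).

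RBTI (LOC9271230), a Bowman-Birk trypsin inhibitor gene, went the other way over the stages. Its nontransgenic signals were 13654, 10999 and 20151 before NaCl, at 20 min and at 3 h, and its transgenic signals were 413.9, 197.7 and 4777. The genotype difference was therefore smallest at 3 h (-2.07) after -4.99 and -5.69. Cht2 was at 3534 and 759.6 (-2.19), and its 2 other probe sets past the filter gave -1.06 and -2.61. Cht6 was nearly equal at 799.2 and 644.6 (-0.30).

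In the phenylpropanoid and lignin list, 8 of 16 genes past the filter were at least 2-fold lower at 3 h and 1 was higher, with a median of -1.11. Over all genes, 7.24% were at least 2-fold lower at 3 h and 3.71% higher. The earlier stages called 7 of the 16 lower and 0 higher, where 13.8% of all genes were called lower and 10.7% higher. PAL06 (LOC4330040), a phenylalanine ammonia-lyase gene, was at 1493 and 20.6 at 3 h, at 1928 and 27.4 before NaCl, and at 551.1 and 28.8 at 20 min. Its transgenic signal never exceeded 28.8, and its difference at 3 h was -5.37. The neighbouring family member PAL (LOC4330034) was at 5179 and 630.5 (-3.01), with 4 further probe sets between -5.38 and -2.38. CAD2, a cinnamyl alcohol dehydrogenase gene of lignin synthesis, was at 4371 and 203.2 (-4.32) and was also low earlier (-3.84 ± 0.18, limma adjusted p = 7.16e-05).

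The laccase gene LAC24 was close between genotypes before NaCl (204.6 and 262.9). It was at 48.4 and 5.22 at 20 min (-1.60) and at 927.4 and 72.7 at 3 h (-3.41). The coenzyme A ligase genes 4CL5 and 4CL3 were at -2.82 and -2.01, whereas 4CL4, CAD1 and CAD3 lay between -0.21 and 0.20. LAC7 was the one member at least 2-fold higher, at 334.7 and 811.9 (1.24). The list median depended on the treatment of low signals, and was -0.51 with no filter and -2.03 with 1 added in place of 16. Among 5 AT genes of the BAHD acyltransferase family, which attach hydroxycinnamates to wall components, AT5 was at 7295 and 178.7 (-5.23), AT4 at -3.03 and AT7 at -1.23, while AT9 and AT1 were at 0.15 and 0.69. The signals of AT1, 18.7 and 39.9, were near the added 16.

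Outside the defence lists, pinA, ABCG48 and EXPB3 had low transgenic signals. The signal of pinA (LOC9268662) was 26185 in nontransgenic and 141.2 in transgenic leaves at 3 h, and at the other stages it was 18545 and 195.8, then 15773 and 253.9. This was the largest negative difference among named genes at 3 h (-7.38). The ABC transporter gene ABCG48 was at 1952 and 24.5 (-5.60), and its earlier differences were -3.22 and -1.97. EXPB3, a beta-expansin gene of cell wall loosening, was at 1530 and 100.4 (-3.73), after 6031 and 1968 before NaCl. Of 36 expansin, XTH and cellulose synthase genes, 9 were at least 2-fold lower and 3 higher, with a median of -0.40. At the earlier stages 12 were called lower and 2 higher. Over all genes, 7.24% were at least 2-fold lower at 3 h and 3.71% higher, and 13.8% were called lower and 10.7% higher earlier. The beta-expansin genes EXPB4 and EXPB6 stood at -2.09 and -2.06 at 3 h, and EXPA1 at 1.22.

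The named genes highest in transgenic leaves had nontransgenic signals near the added constant of 16. OsC3H40 (LOC4340263), a CCCH zinc finger protein gene, was at 17.5 in nontransgenic and 4236 in transgenic leaves at 3 h, at 2.24 and 4225 before NaCl, and at 22.2 and 3872 at 20 min (6.99 at 3 h). HSP16.0, a small heat shock protein gene, was at 7.51 and 2128 (6.51), and its transgenic signal had been 822.1 and 897.8 earlier. ATG8D, of the ubiquitin-like autophagy family, was at 8.27 and 2136 (6.47), and METK3, an S-adenosylmethionine synthase gene, at 12.7 and 1429 (5.66). None of these 4 had a nontransgenic signal above 37.3 or a transgenic signal below 822.1 on any array. They were chosen for their 3 h difference, and they passed the filter on mean signal only through their transgenic arrays. The calls at the earlier stages are therefore a description and no separate support. The earlier stages called all 4 higher, with limma adjusted p from 5.72e-05 to 0.000259, where 10.7% of all genes were called higher.

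In the autophagy and heat shock lists no other gene past the filter differed to that extent. Of 9 autophagy and cell death genes, ATG8D was the only one at least 2-fold higher, and the median of the 9 was -0.08. Among 35 heat shock protein and factor genes, HSP16.0 and HSP18.8 were at least 2-fold higher, while HSP16.9B, HSFA4D and HSP17.9B were lower (-1.80, -1.66 and -1.46). For both lists, the shares over all genes were 3.71% higher and 7.24% lower. HSP18.8 was equal between genotypes before NaCl (6943 and 6917) and stood at 5237 and 11970 at 3 h.

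More moderate differences that held at each stage were those of KIN14K, PHP5 and BGLU9. KIN14K, a kinesin gene, was at 568.5 and 2605 (2.17 at 3 h and 2.08 ± 0.13 earlier, limma adjusted p = 0.000212). PHP5, a pseudo-phosphotransfer protein gene of cytokinin signalling, was at 300.4 and 1281 (2.04), and BGLU9, a beta-glucosidase gene, at 517.6 and 2304 (2.12). The probe sets of KIN14K and PHP5 bear the same cluster number and may share signal, so they are not taken as separate evidence. Further KIN14K probe sets past the filter, of another cluster number, gave 1.308 and 1.685. OsCASPL1C1, of the Casparian strip membrane protein-like family, was at 26.8 and 314.0 (2.95).

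**Figure D3:**
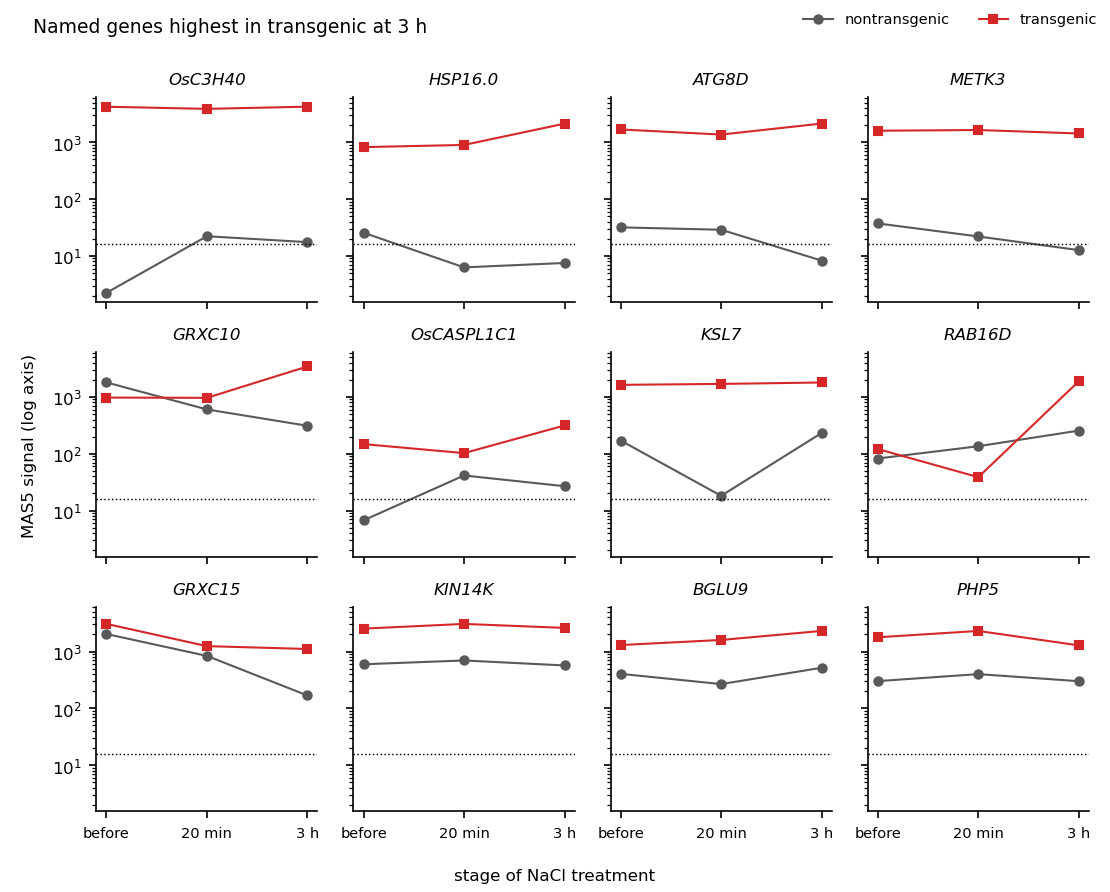
MAS5 signals on a log axis of the 12 named genes with the largest positive difference at 3 h, at each stage, with 1 array per point (grey circles, nontransgenic; red squares, transgenic). OsC3H40, HSP16.0, ATG8D and METK3 are at or below 37.3 in each nontransgenic array, whereas GRXC10, GRXC15 and RAB16D part between genotypes at 3 h.

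Some dehydrin genes were higher in transgenic leaves at 3 h. Of 8 dehydrin and LEA genes, 3 were at least 2-fold higher in transgenic leaves at 3 h and 1 was lower, with a median of 0.57. Among all genes, 3.71% were at least 2-fold higher and 7.24% lower. The list median was 0.31 before NaCl and -0.40 at 20 min, and at 3 h it was 0.085 when scaled to the added controls. RAB16D (LOC4350451) was at 255.2 in nontransgenic and 1887 in transgenic leaves (2.81), after 82.3 and 120.9 before NaCl and 135.4 and 38.6 at 20 min. RAB16C (LOC4350452) was at 2943 and 9404 (1.67), with nearly equal signals before NaCl (421.4 and 469.1) and at 20 min (151.5 and 185.1). RAB16B was at 7254 and 19219 (1.40) and was also higher earlier (1.01 ± 0.15, limma adjusted p = 0.00485).

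From before NaCl to 3 h, the log2 signal of RAB16D was 1.46 higher in nontransgenic and 3.80 higher in transgenic leaves, and that of RAB16C 2.76 and 4.28 higher. RAB21, the fourth gene of that chromosome 11 family, was at 20720 and 31005 (0.58). Emp1, an embryo LEA gene, was lower in transgenic leaves at 5583 and 2205 (-1.33), and LIP1 was close at 2408 and 2304. Genes of abscisic acid synthesis, breakdown and signalling had a median of -0.20 over 14 genes, with the hydroxylase gene ABA8OX1 at 927.3 and 248.9 (-1.83) and the kinase gene SAPK9 at 77.2 and 220.4 (1.34).

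A pair of glutaredoxin genes, GRXC10 and GRXC15, which encode small redox proteins, parted at 3 h. GRXC10 (LOC4351046) was at 310.1 in nontransgenic and 3437 in transgenic leaves (3.40), after 1800 and 972.5 before NaCl and 601.9 and 962.6 at 20 min. GRXC15 (LOC4352426) was at 168.3 and 1108 (2.61), after 2035 and 3066, then 837.1 and 1244. The nontransgenic signal of both was lowest at 3 h, and only that of GRXC10 was higher at 3 h than before NaCl in transgenic leaves. Of the 32 glutathione transferase and antioxidant genes, 3 were at least 2-fold higher, 3 were lower, and the median was -0.10. The shares over all genes were 3.71% higher and 7.24% lower.

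Whether the 3 h difference departed from the mean of the other stages was tested with a limma fit that leaves 1 residual degree of freedom. It called 0 of 28629 probe sets (0%), with 2648 at an unadjusted p under 0.05. A departure of at least 2-fold was measured for 1207 probe sets upward and 1584 downward. The largest downward departures among named genes were those of CPS2 (-5.42 ± 1.09, adjusted p = 0.281), CYP71Z7 (-4.08 ± 0.33, 0.0953) and PBZ1 (-3.71 ± 0.28, 0.0953). CYP701A8 (-3.26), DXPS (-3.20), ABCG48 (-3.01), LAC24 (-2.78) and KSL10 (-2.69) followed. The largest upward ones were those of GRXC10 (3.51 ± 0.57, adjusted p = 0.234), RAB16D (3.31 ± 0.77, 0.370) and RBTI (3.27 ± 0.31, 0.109).

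Upward departures were also measured for rab25 (2.49), GRXC15 (2.03), LOX8 (1.93), R40C1 (1.92) and HSFB2C (1.84). For LOX8, a lipoxygenase gene, and R40C1, a lectin-like gene, the genotypes had differed earlier and were close at 3 h, at 1944 and 1593 and at 1945 and 2134. HSFB2C, a heat shock factor gene, was at 2056 and 3107 (0.59), but its 2 other probe sets past the filter gave -0.19 and -0.22.

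**Figure D4:**
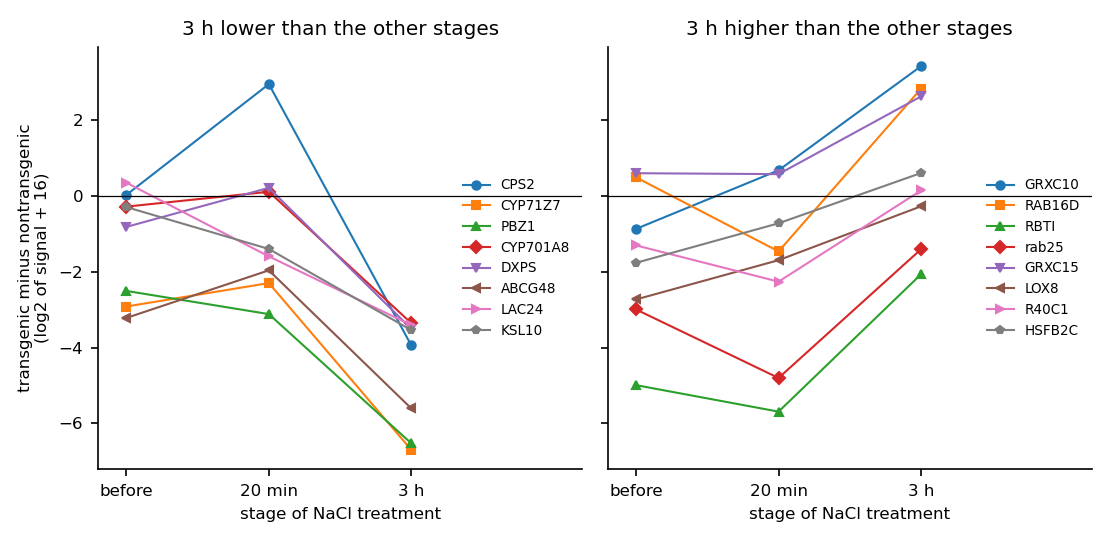
Transgenic minus nontransgenic difference (log2 of signal + 16) before NaCl, at 20 min and at 3 h for the 8 named genes with the largest downward (left) and upward (right) departure at 3 h from the mean of the other stages. Each point is 1 pair of arrays, and 0 of these 16 departures passed the limma test. CPS2 goes from 0.02 and 2.93 to -3.94, and RBTI from -4.99 and -5.69 to -2.07.

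Regulators of defence and stress were mostly lower or near 0. All 6 WRKY genes with a curated name were below 0 at 3 h, 3 of them at least 2-fold lower, with a median of -1.05. WRKY76, WRKY62 and WRKY24, transcription factors known for roles in rice immunity, were at -2.67, -1.87 and -1.49, and WRKY62 was the one called lower at the earlier stages (-1.43 ± 0.27, limma adjusted p = 0.0125). In the jasmonate list, 7 of 26 genes were at least 2-fold lower, 0 were higher, and the median was -0.57. Over all genes, 7.24% were at least 2-fold lower and 3.71% higher. The oxylipin enzyme genes OPR5, AOS2 and LOX9 were at -2.22, -2.19 and -1.91, and the repressor genes JAZ10 and JAZ9 at -1.74 and -1.71. AOS2, JAZ10 and JAZ9 had been higher in transgenic leaves at 20 min (0.07, 0.61 and 1.06) and lower before NaCl.

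NAC45 was at 966.0 and 72.2 (-3.48), as low as at the earlier stages (-3.80 ± 0.20, limma adjusted p = 0.000109), and the other 6 NAC genes lay between -0.20 and 1.05. The 6 DREB genes past the filter held 0 members past 2-fold, with a median of 0.04. Calcium kinases and sensors had 1 higher and 4 lower of 67, and the PP2C phosphatases 1 and 2 of 51, with medians of -0.03 and -0.02. These counts were no larger in share than those over all genes, 3.71% higher and 7.24% lower.

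Chlorophyll synthesis genes were slightly higher in transgenic leaves, with all 10 genes past the filter above 0 at 3 h. The median was 0.45 at 3 h after 0.88 and 0.57, although scaled to the added controls the median was -0.043. PORA did not pass the filter and was at 31.95 in nontransgenic and 21.72 in transgenic leaves at 3 h. The earlier stages called 8 of the 10 higher and 0 lower, where 10.7% of all genes were called higher and 13.8% lower. PPO, protoporphyrinogen oxidase, was at 385.6 and 912.3 (1.21), the one member at least 2-fold higher, and CHLG, chlorophyll synthase, was at 1494 and 2734 (0.86). PORB, a light-dependent protochlorophyllide reductase gene, was at 4891 and 6683 (0.45).

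Of 20 sodium and potassium transport genes, 2 were at least 2-fold lower and 0 higher, where 7.24% of all genes were lower and 3.71% higher. The potassium transporter gene HAK1 was at 2112 and 898.3 (-1.22), and the sodium transporter gene HKT1;5 at 92.6 and 34.8 (-1.10). The other HAK1 probe set past the filter gave -0.56, short of 2-fold. Among 22 aquaporin genes 3 were at least 2-fold lower and 0 higher, and the median was -0.01. NIP1-1, Lsi6 and TIP4-2 were at -2.61, -1.52 and -1.51.

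**Figure D5:**
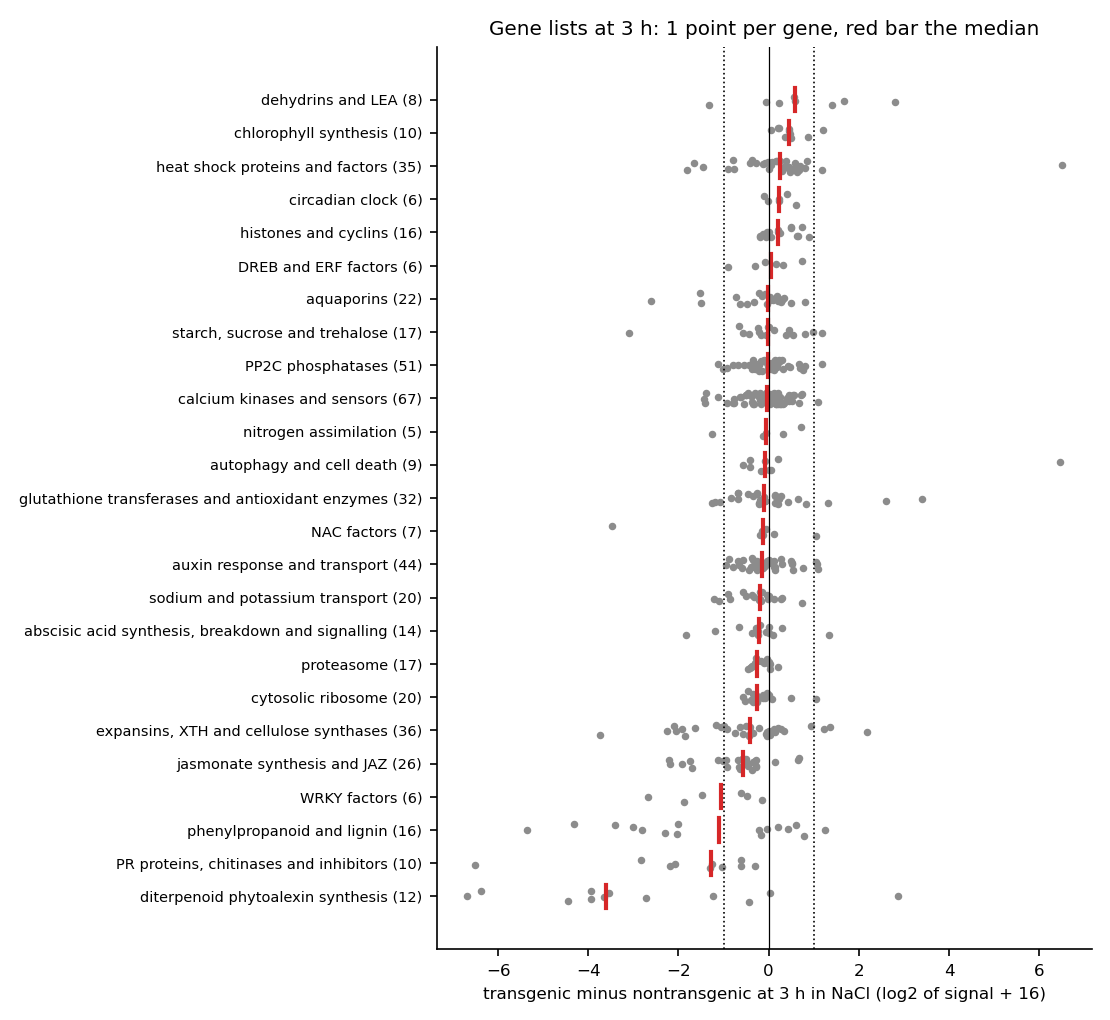
Transgenic minus nontransgenic difference at 3 h (log2 of signal + 16) of each gene in the lists with at least 5 genes past the filter, without the lists added after the values were seen, with 1 point per gene, the list median as a red bar and dotted lines at 2-fold. The number of genes is in brackets. The diterpenoid list has the lowest median (-3.60), and dehydrins the highest (0.57).

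Several probe sets of a gene gave a check within the arrays. For genes at least 2-fold different at 3 h by their brightest probe set, 240 of 281 further probe sets (85.4%) had the same sign, and 142 (50.5%) were also past 2-fold. SUS1, a sucrose synthase gene at -3.10 by its brightest probe set, was at 0.04 by its other one.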

How the data were processed

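Leaf RNA was hybridised to 6 arrays, 1 for each of 2 genotypes at 3 stages. Deposited values were log2 probe set signals from MAS5, run by the authors per the submitters' processing notes. Its version and scaling target are not given in the sources used here. The mean linear signal without the top and bottom 2% was 500.1 on every array. Differences were taken on log2(signal + 16) of the linear signals. Probe sets with a mean below the median of the 57258 rice probe sets (log2 5.53) were left out, keeping 28629, and the 123 control probe sets were used only as such.

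The 3 h difference has no test. Fits in limma 3.58.1 under R 4.3.3 (lmFit, eBayes with intensity trend, Benjamini-Hochberg, threshold 0.05) gave the genotype difference over all stages (2 residual degrees of freedom), over the 4 arrays of the other stages, and the departure at 3 h. On simulated arrays of 28629 probe sets the genotype fit recovered 72 of 100 changes of 2-fold and 92 of 100 of 4-fold, with 26 false among 190 calls. The departure fit recovered 35 and 73, with 50 false among 158 calls. In both fits the false share was above the threshold of 0.05. The simulated noise was independent, with no stage differences and no other changed probe sets. These rates therefore need not hold for the real arrays, where many more probe sets differed.

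Of the rice probe sets, 22436 had 1 gene, 95 several and 34727 none in the platform annotation. All 22436 were matched to the RefSeq gene table of assembly ASM3414082v1, used for names and gene order only, and 3185 of them (2452 genes) had a curated name. A gene stood by its probe set of highest mean. Named genes were the 12 largest differences and the 8 largest departures in each direction, with a signal of at least 100 on the brighter 3 h array. Up to 4 members of each list by size, and all members of lists under 8 genes, were named without that limit. Further list members are named to describe their list and were chosen after their values were seen. Rules that needed gene descriptions or promoter sequences were not used here. Members and lists were chosen with earlier results of these data known, and 5 lists were added after the values were seen. Alternatives were other added constants, filters and scalings, and each pair of arrays left out.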

Additional observations from a re-analysis of the deposited data

Results flagged for a closer look

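CPS2, the copalyl diphosphate synthase gene, had a 3 h difference opposite in sign to both other stages, with values of 0.02 before NaCl, 2.93 at 20 min and -3.94 at 3 h, a departure of -5.42. The value before NaCl is close to 0. The limma test of the departure did not pass (adjusted p = 0.281).

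The control probe sets lie outside the comparison. The poly-A controls were higher on the transgenic array at 3 h by 0.78 (mean log2), and by 0.65 before NaCl and 0.25 at 20 min. The log2 ratio of the GAPDH 3′ over 5′ probe set was higher on the transgenic array by 1.48 at 3 h, by 1.55 before NaCl and by 2.00 at 20 min. Those of actin, ubiquitin and cyclophilin differed by 0.45, 0.08 and -0.21 at 3 h. Their part in the gene differences was not tested.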

How the results depend on the processing

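Replicates could not be paired because each genotype had 1 array per stage, and the fits matched the genotypes by stage only. The count of probe sets at least 2-fold higher at 3 h (1688) was 962 with 64 added, 3271 with no filter, 775 scaled to the added controls and 346 at 4-fold. The count lower (2304) was 1358, 5792, 4800 and 648 under the same settings. The genotype calls over the 3 stages (2845 higher, 3044 lower) were 1461 and 1690 without the variance trend and 1269 and 8323 scaled to the added controls. They were 1464 and 1557 without the arrays from before NaCl, 1615 and 1883 without those of 20 min, and 2958 and 3129 without those of 3 h. The departure fit called 0 under each of 7 other settings and 40 higher and 141 lower scaled to the added controls. Of 248 list medians under alternatives, 39 moved by more than their spread over the stages, 26 of these under scaling to the added controls. They include those of the phenylpropanoid list (-2.03 with 1 added, -0.67 with 64 added, -0.51 with no filter, -2.04 with bright probe sets only). Scaled to the added controls, the medians were -1.70 for pathogenesis-related genes, -1.53 for phenylpropanoids, -1.03 for jasmonate and -0.043 for chlorophyll synthesis, where all probe sets stood at -0.47. The causes were not tested. Of 784 values of the 157 named genes under alternatives, 0 reversed and 116 moved by more than their spread over the stages, 79 of these under scaling to the added controls. The bright filter on the fits was chosen after seeing the data. Signals near 16 limit what can be measured, since the size of a difference there depends on the added constant.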

Other observations

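The largest differences of all belonged to genes with no curated name, which are given by identifier only. LOC4348445 had a signal of 14326 in nontransgenic and 2.36 in transgenic leaves at 3 h (-9.61), and LOC4340994 had 6406 and 1.83 (-8.49). Higher in transgenic leaves were LOC4334900, at 15.1 and 10576 (8.41), and LOC4340976, at 15.3 and 7063 (7.82). All 4 differed in the same direction at the earlier stages, with limma adjusted p from 3.24e-05 to 0.00767. At those stages 13.8% of all genes were called lower and 10.7% higher.

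Germin-like protein genes, a list added after the values were seen, had 4 of 5 members past the filter at least 2-fold lower at 3 h. The share over all genes was 7.24%. The list had 9 genes on the array, and those below the filter, with 3 h signals of at most 36.5, are not in this count. GER6 was at 1314 and 143.0 (-3.06) at 3 h, after nearly equal signals of 524.7 and 570.3 before NaCl and 1185 and 567.8 at 20 min (-1.04). GER4 was at 294.3 and 31.7 (-2.70). GLP2 was at -1.92 by its brightest probe set and at -3.67 by its other one.

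By chromosome of the reference assembly, at least 4-fold higher genes were 18 of 647 on chromosome 11 (2.78%), against 0.679% over all 14884 and 4 of 2110 on chromosome 3 (0.190%). At least 4-fold lower genes were 2.12% over all, with 16 of 1250 on chromosome 5 and 24 of 751 on chromosome 12. These shares were read after the values were seen and carry no test.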
